A study of Cricetulus griseus with 3 samples.

Results

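The extracellular matrix genes described here were the 44 genes of collagens, laminins, nidogens, fibronectin, matricellular proteins, proteoglycans of the matrix, glypicans, a fibulin and a matrilin that 80 of the 16928 tested spots of a mouse cDNA array carried as their single gene name. They were taken by matching gene symbols out of 8146 named genes, with earlier results of these data known. The samples came from established Chinese hamster ovary (CHO) lines. S-1 cells, which stably carry constructs for the 4 subunits of γ-secretase (Flag-PEN2, APH1-a2-HA, NCT-GST and the presenilin subunit), were kept under selection (blasticidin at 10, hygromycin and zeocin at 250 each, puromycin at 25 and G418 at 200 µg/ml) and received 0.05% DMSO for 24 h. The S-1 line was derived from the parental CHO line through an intermediate line, and the study also marks APP as overexpressed in it. S-1 cells were compared with untransfected parental CHO cells given 10 µM DAPT, an inhibitor of γ-secretase, in 0.05% DMSO for 24 h. Each of 3 two-colour arrays took the RNA of 1 culture of each side, and S-1 RNA was labelled with Cy3 on arrays 1 and 2 and with Cy5 on array 3. Each side was 1 cell line, so that effects of the constructs, of selection, of the inhibitor and of the lines themselves cannot be told apart, and the spread over arrays is that between cultures of the same 2 lines. All values are log2 ratios with S-1 on top, so that a negative value means less RNA in S-1 cells, and no level of either side, nor any marker of the cell type, can be read from them.

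The extracellular matrix is the protein scaffold that cells secrete around themselves. Fibrillar collagens and fibronectin build the fibres of connective tissue, while laminins, type IV collagen, nidogens and perlecan assemble into the basement membrane, the sheet that underlies epithelia and surrounds muscle and vessels. Laminins are trimers of an α, a β and a γ chain, and nidogens link the laminin network to that of type IV collagen. Matricellular proteins such as tenascin C, SPARC and thrombospondins mainly modulate how cells attach to this scaffold, and glypicans carry heparan sulfate on the cell surface.

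As a check of the labels, the transfected Psenen was at 2.84, 3.11 and 3.33 on arrays 1 to 3 and Aph1a at 2.02 ± 0.16, so that both stood above 0 throughout (adjusted p = 1.36e-04 and 1.40e-04), while Ncstn was at 0.38 ± 0.25 and did not pass (adjusted p = 0.0313). The median ratio of the tested spots was between 0.00 and 0.02 on each array, with an SD between 0.46 and 0.53. The deposited ratios hold no intensities, so that a matrix spot near 0 can also be one with little hybridisation. That there were 3 arrays limits the precision, and a gene that did not pass is not shown to be unchanged.

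The matrix genes were mostly lower in S-1 cells or did not pass the test. Of the 44 genes, 17 fell, 2 rose and 25 did not pass limma's test at an adjusted p of 0.005, the threshold of the study. The genes that fell were 38.6% of the matrix genes, against a background of 10.3% of all 8146 genes, and those that rose 4.55% against 12.4%. Of the 80 spots, 33 fell and 4 rose (41.2% and 5%), whereas 8.52% of all tested spots fell and 9.68% rose. The median ratio of the 80 spots was −0.10, beside 0.01 over all tested spots, and 16 of the 80 (20%) lay below −1, beside 1.65% of all spots. For the 37 matrix spots that passed, the 3 arrays never differed in sign. Nor did they for the 3080 spots that passed over the whole array, so that this is not particular to matrix spots. Among the genes other than collagens 12 of 25 fell, and among the collagen genes 5 of 19, a difference that was not tested.

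**Figure D1:**
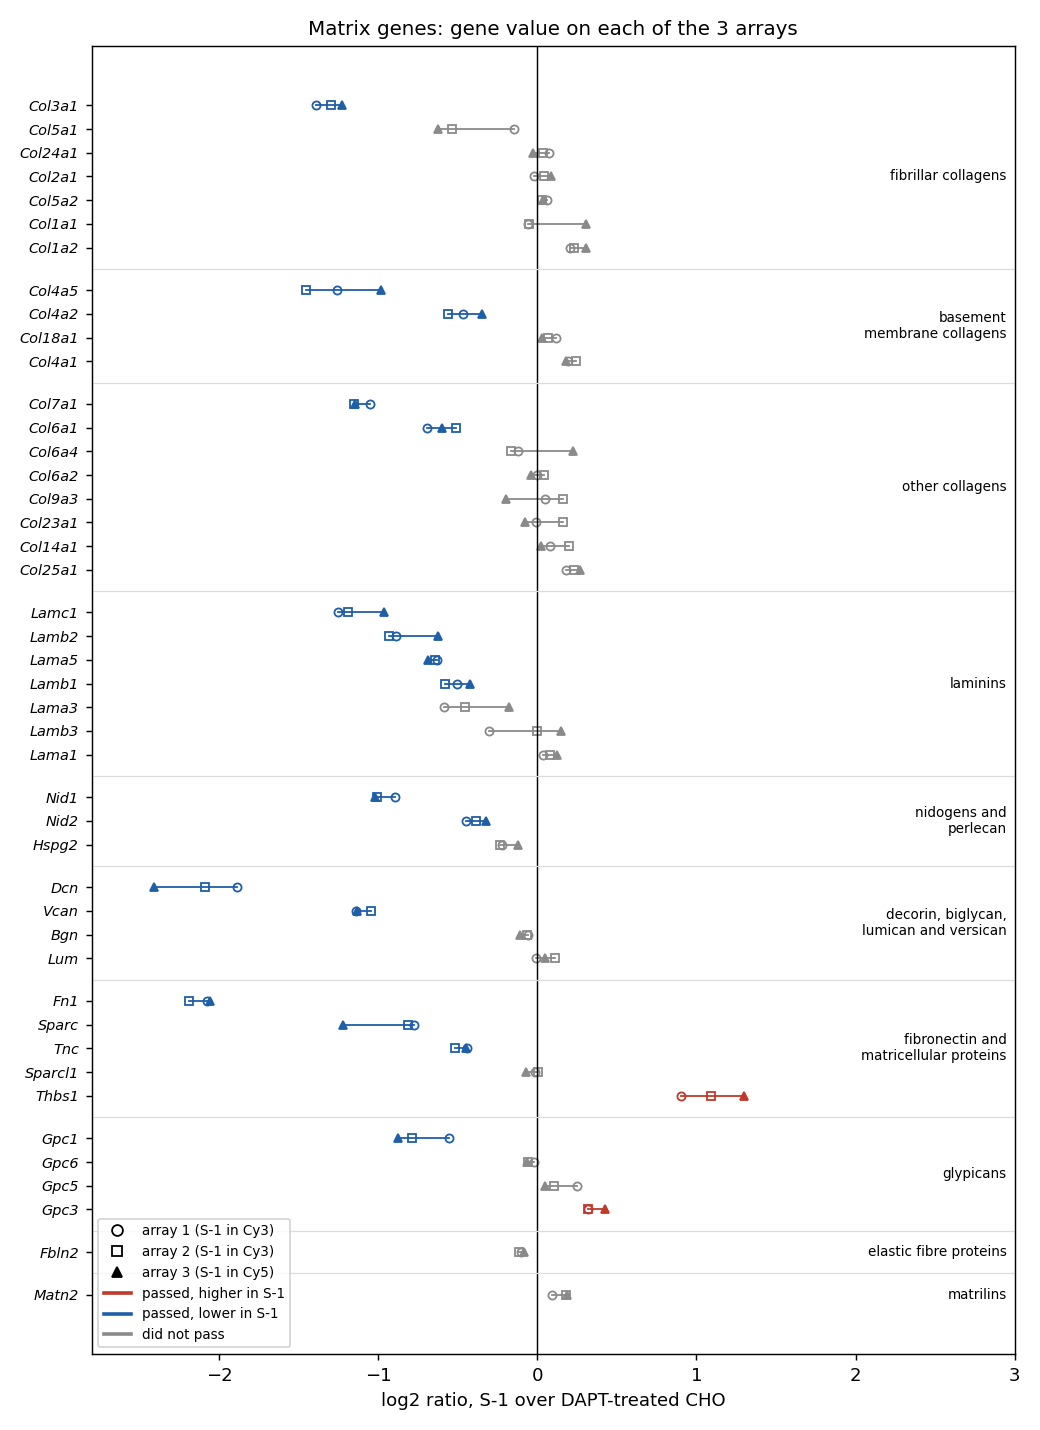
Gene value (mean of all spots of a gene) of the 44 matrix genes on each array, with genes in rows by family and the log2 ratio (S-1/DAPT-treated CHO) on the horizontal axis. Symbols stand for the 3 arrays, horizontal lines span their range and colours give the call. The 17 genes that fell lie left of 0 on every array, led by Dcn at −2.13 and Fn1 at −2.11, while most collagens sit around 0.

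**Figure D2:**
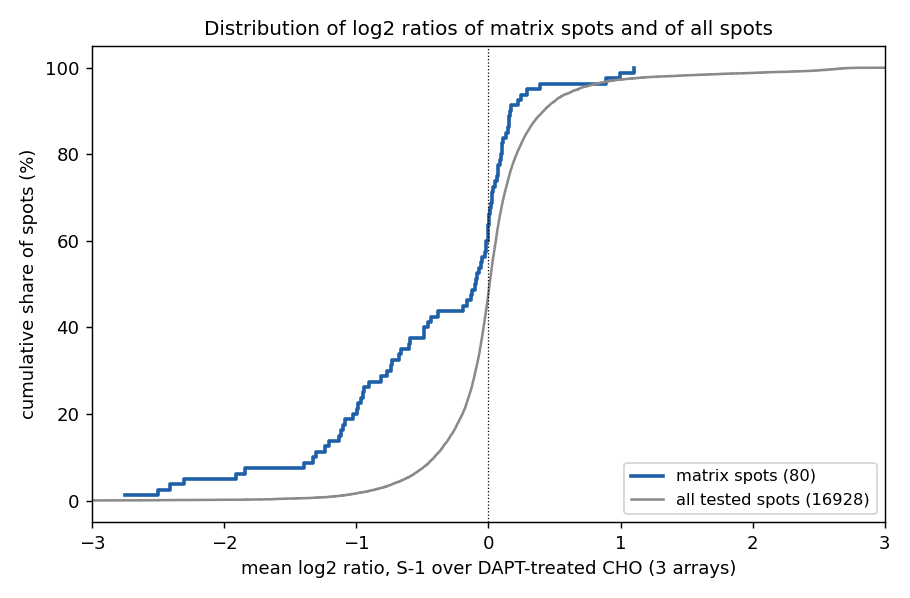
Distribution curves of the mean ratio (horizontal axis, log2 S-1/DAPT-treated CHO over 3 arrays), each giving the percentage of spots that lie no higher (vertical axis), for the 80 matrix spots and for all 16928 tested spots. The matrix line departs to the left, with 20% of its spots below −1 against 1.65% of all spots.

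Among the fibrillar collagens, 1 of 7 genes fell and the other 6 did not pass. That gene was Col3a1, which encodes the chain of type III collagen, a fibrillar collagen of skin, vessels and other extensible tissues. Its gene value, the mean of its spots, was −1.39, −1.30 and −1.23 on arrays 1 to 3 (mean −1.31 ± 0.08, SD over n = 3 arrays as for all values given with ±, adjusted p = 1.48e-04, limma). The 4 spots behind it did not measure the same change. Of its spots, 1 stood at −2.94, −2.76 and −2.56 on arrays 1 to 3 (adjusted p = 1.17e-04) and another at −2.66, −2.46 and −2.38, which are 6.75-fold and 5.67-fold lower in S-1 cells. Both other spots were at −0.13 ± 0.01 and 0.17 ± 0.01 and did not pass. The Col3a1 clones thus formed a low pair and a pair near 0 on every array, and the mean of −1.31 describes neither pair.

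Type I collagen, the main collagen of bone, tendon and skin, is built from the chains of Col1a1 and Col1a2. Col1a1 was at −0.06, −0.05 and 0.31 on arrays 1 to 3 (mean 0.06, 95% confidence interval −0.16 to 0.29). Col1a2 had a gene value of 0.25 ± 0.05 (adjusted p = 0.00986) and did not pass. Its 3 spots were split by clone collection, which is marked by the letter of the clone name: the P clone rose, at 0.82, 1.09 and 1.07 (1.99-fold, adjusted p = 5.86e-04), whereas both H clones were at −0.16 ± 0.16 and −0.09 ± 0.03. On the H clones alone the value of Col1a2 was −0.13. Neither direction can thus be given for this gene.

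The chains of type V collagen, which sits inside type I fibrils and limits their width, are encoded by Col5a1 and Col5a2. Col5a1 was below 0 on all 3 arrays, at −0.15, −0.54 and −0.63, but its array 1 stood apart and it did not pass (mean −0.44 ± 0.25, adjusted p = 0.0211). Col5a2 was at 0.04 ± 0.02 over 2 spots, with a confidence interval of −0.06 to 0.15. Col2a1, the collagen of cartilage, and Col24a1, a minor fibrillar collagen, were at 0.04 and 0.03.

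Of the 4 genes of basement membrane collagens, 2 fell and 2 did not pass. Col4a5 encodes the α5 chain of type IV collagen, the chain affected in Alport syndrome. Its gene value was −1.26, −1.45 and −0.98 on arrays 1 to 3 (mean −1.23 ± 0.24, a 2.35-fold lower ratio, adjusted p = 7.36e-04). Both of its spots fell, the P clone at −1.33 ± 0.22 and the H clone at −1.13 ± 0.25, and each was nearest to 0 on array 3. Col4a2 encodes the α2 chain, which joins 2 α1 chains in the most common type IV trimer. It was at −0.47, −0.56 and −0.35 on its single H clone (mean −0.46 ± 0.11, adjusted p = 0.00277). Its partner Col4a1 stood on the other side of 0, at 0.19, 0.24 and 0.18 (mean 0.21 ± 0.03, adjusted p = 0.0146), and did not pass as a gene, although 1 of its 3 spots rose (0.39 ± 0.04, adjusted p = 0.00276). All 3 arrays of Col4a2 thus lay below all 3 of Col4a1. Col18a1, whose C-terminal fragment is endostatin, was at 0.07 ± 0.04 over 2 spots.

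The other 8 collagen genes included 2 that fell. Col7a1, the collagen of the anchoring fibrils that fix the epidermal basement membrane to the dermis, was at −1.05, −1.15 and −1.14 on its single P clone (mean −1.12 ± 0.05, 2.17-fold lower, adjusted p = 1.51e-04). Col6a1 encodes a chain of the beaded filaments of type VI collagen. On its single H clone it was at −0.69, −0.51 and −0.60 (mean −0.60 ± 0.09, adjusted p = 0.00101). Col6a2, the chain that assembles with it, was at 0.00 ± 0.04 on 1 H clone, with a confidence interval of −0.11 to 0.11. All 3 arrays of Col6a1 lay below those of Col6a2. Col25a1, a membrane-spanning collagen first known from amyloid plaques, was above 0 on every array at 0.18, 0.23 and 0.27 (mean 0.23 ± 0.04, adjusted p = 0.0118) and did not pass. Col14a1, Col23a1, Col9a3 and Col6a4 lay between −0.02 and 0.10. Over the 14 collagen genes that did not pass, the means ran from −0.44 to 0.25 around a median of 0.04.

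Of the 7 laminin genes, 4 fell and 3 did not pass, and by spots 11 of 18 fell. Lamc1 encodes γ1, the γ chain of most laminin trimers, and was the lowest of them. Its gene value was −1.25, −1.19 and −0.96 on arrays 1 to 3 (mean −1.13 ± 0.15, 2.20-fold lower, adjusted p = 3.50e-04). All 4 of its spots fell. The 3 H clones stood close together at −1.40, −1.31 and −1.24, and the P clone was nearer to 0 at −0.59 ± 0.12.

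Lamb1 and Lamb2 encode the β chains that pair with γ1. Lamb1 was at −0.50, −0.58 and −0.42 over 5 spots (mean −0.50 ± 0.08, adjusted p = 0.00149). Of these spots 4 fell, at −1.02, −0.66, −0.49 and −0.49, while an H clone at 0.15 ± 0.04 did not pass (adjusted p = 0.0534). Lamb2, read by 1 P clone, was at −0.89, −0.93 and −0.63 (mean −0.82 ± 0.17, adjusted p = 0.00109). Both β chains were thus lower in S-1 cells on every array, by less on array 3 than on the others.

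Lama5 encodes α5, the α chain of the widespread laminins of adult epithelial and vascular basement membranes. Its gene value was −0.63, −0.64 and −0.69 (mean −0.65 ± 0.03, adjusted p = 4.37e-04). The P clone at −1.21 ± 0.02 and an H clone at −0.90 ± 0.14 fell, and a second H clone stood at 0.15 ± 0.07. The gene value of Lama5 is therefore nearer to 0 than either clone that passed. With α5, β1, β2 and γ1, every chain of the trimers laminin-511 and laminin-521 had a lower gene value. The α1 chain gene Lama1 was at 0.08 ± 0.04, and Lamb3, a chain of the epidermal laminin-332, was at −0.30, 0.00 and 0.15 on its single P clone. Lama3, another chain of laminin-332, was at −0.59, −0.46 and −0.18 (mean −0.41 ± 0.21, adjusted p = 0.0162) and did not pass. Its N clone varied most, at −1.09, −0.85 and −0.24, against an H clone at −0.09 ± 0.03.

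Both nidogen genes fell. Nid1 was at −0.89, −1.01 and −1.02 on arrays 1 to 3 (mean −0.97 ± 0.07, 1.96-fold lower, adjusted p = 1.99e-04), and its 3 spots, 2 H clones and a P clone, had means of −0.99, −0.98 and −0.94. No other gene with 3 or more spots of which any passed had clones within such a narrow range (0.05), although 1 of the H clones of Nid1 varied between −0.70 and −1.32 over the arrays. Nid2 was at −0.45, −0.38 and −0.32 on its single H clone (mean −0.38 ± 0.06, adjusted p = 0.00272). Perlecan (Hspg2), the large heparan sulfate proteoglycan of basement membranes, was read by 1 H clone. It was below 0 on every array, at −0.22, −0.23 and −0.12, but did not pass (mean −0.19 ± 0.06, adjusted p = 0.0241).

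Of the 4 genes of decorin, biglycan, lumican and versican, those of decorin and versican fell. Decorin (Dcn), a small leucine-rich proteoglycan that binds collagen fibrils and TGF-β, was the lowest of all 44 genes. Its gene value was −1.89, −2.09 and −2.41 on arrays 1 to 3 (mean −2.13 ± 0.26, 4.37-fold lower, adjusted p = 1.96e-04). Both of its H clones fell, at −2.41 ± 0.30 and −1.84 ± 0.23, and both were lowest on array 3. Versican (Vcan) is a large chondroitin sulfate proteoglycan that binds hyaluronan. On its single H clone it was at −1.14, −1.04 and −1.13 (mean −1.10 ± 0.05, 2.15-fold lower, adjusted p = 1.54e-04). Biglycan (Bgn), the closest relative of decorin, was at −0.08 ± 0.03 on 1 H clone, with a confidence interval of −0.18 to 0.03. Lumican (Lum), of the same family, was at 0.05 ± 0.06 over an H and a P clone. The fall of decorin was thus not seen in the measured spots of its relatives, and the difference between these genes was not tested.

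Fibronectin (Fn1), the glycoprotein that cells assemble into fibrils through integrins, fell about as far as decorin. Its gene value was −2.07, −2.19 and −2.06 (mean −2.11 ± 0.07, 4.31-fold lower, adjusted p = 1.36e-04). The H clone was nearly the same on every array, at −2.31, −2.29 and −2.30, and the P clone stood at −1.84, −2.09 and −1.81. The clones were 4.93-fold and 3.76-fold lower, so that the fall of fibronectin was read in both collections.

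Of the 4 matricellular genes measured, 2 fell, 1 rose and 1 did not pass. SPARC (Sparc), which binds collagen and calcium, had a gene value of −0.77, −0.81 and −1.22 (mean −0.93 ± 0.25, 1.91-fold lower, adjusted p = 0.00182). All 3 of its H clones fell, at −1.08, −0.95 and −0.77, and all were lowest on array 3, where S-1 RNA carried Cy5. Its relative Sparcl1 was at −0.03 ± 0.04. Tenascin C (Tnc), a large glycoprotein of developing and healing tissue, was at −0.44, −0.51 and −0.45 (mean −0.47 ± 0.04, adjusted p = 0.00122). An H clone at −0.97 ± 0.04 and a P clone at −0.68 ± 0.16 fell, whereas another H clone was at 0.25 ± 0.03 (adjusted p = 0.0105).

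Thrombospondin 1 (Thbs1), which activates latent TGF-β and restrains vessel growth, was at 0.90, 1.09 and 1.30 on arrays 1 to 3 (mean 1.10 ± 0.20, 2.14-fold higher, adjusted p = 6.86e-04). It was read by a single spot at a position for which the study lists no clone. Such spots had a median ratio of 1.56 over the array, and 378 of 480 of them rose. The ratio of Thbs1 was lower than this median, and with each clone collection centred on its own median it turned to −0.46 (adjusted p = 0.00309). No other matrix gene was read at such a position.

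Of the 4 glypican genes, 1 fell, 1 rose and 2 did not pass. Glypican 1 (Gpc1), a coreceptor of fibroblast growth factors, was at −0.55, −0.79 and −0.88 on its single H clone (mean −0.74 ± 0.17, 1.67-fold lower, adjusted p = 0.00147). Glypican 3 (Gpc3), which restrains growth of the embryo, was at 0.32, 0.32 and 0.42 (mean 0.35 ± 0.06, adjusted p = 0.00345). This call rested on the P clone at 0.89, 0.75 and 1.03, since both H clones were at 0.07 ± 0.08 and 0.10 ± 0.02, and on these alone the value was 0.09 (adjusted p = 0.176). Gpc6 lay between −0.13 and 0.02 on its 4 H clones, and Gpc5 was at 0.13 ± 0.11. Outside these families, Fbln2, a fibulin of elastic fibres, was at −0.10 ± 0.02, and Matn2, a matrilin, at 0.15 ± 0.05 (adjusted p = 0.0444). Neither passed.

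Different clones of a gene did not always measure the same ratio. Of the 20 genes with 2 or more spots, 13 had at least 1 spot that passed. In 6 of them (Dcn, Fn1, Col4a5, Lamc1, Nid1 and Sparc) every spot fell. In the other 7, a spot that passed stood beside a spot that did not, and in 5 of these (Col3a1, Lama5, Lamb1, Tnc and Col1a2) a clone had the opposite sign. In Col3a1, Lama5, Lamb1 and Tnc that clone was an H clone between 0.15 and 0.25 that was above 0 on all 3 arrays. No gene had spots that passed in both directions. The spots are PCR products of different mouse cDNA clones under the same gene name. Their sequences were not used here, and cross-hybridisation between hamster RNA of related genes, such as those of collagen chains, was not tested.

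**Figure D3:**
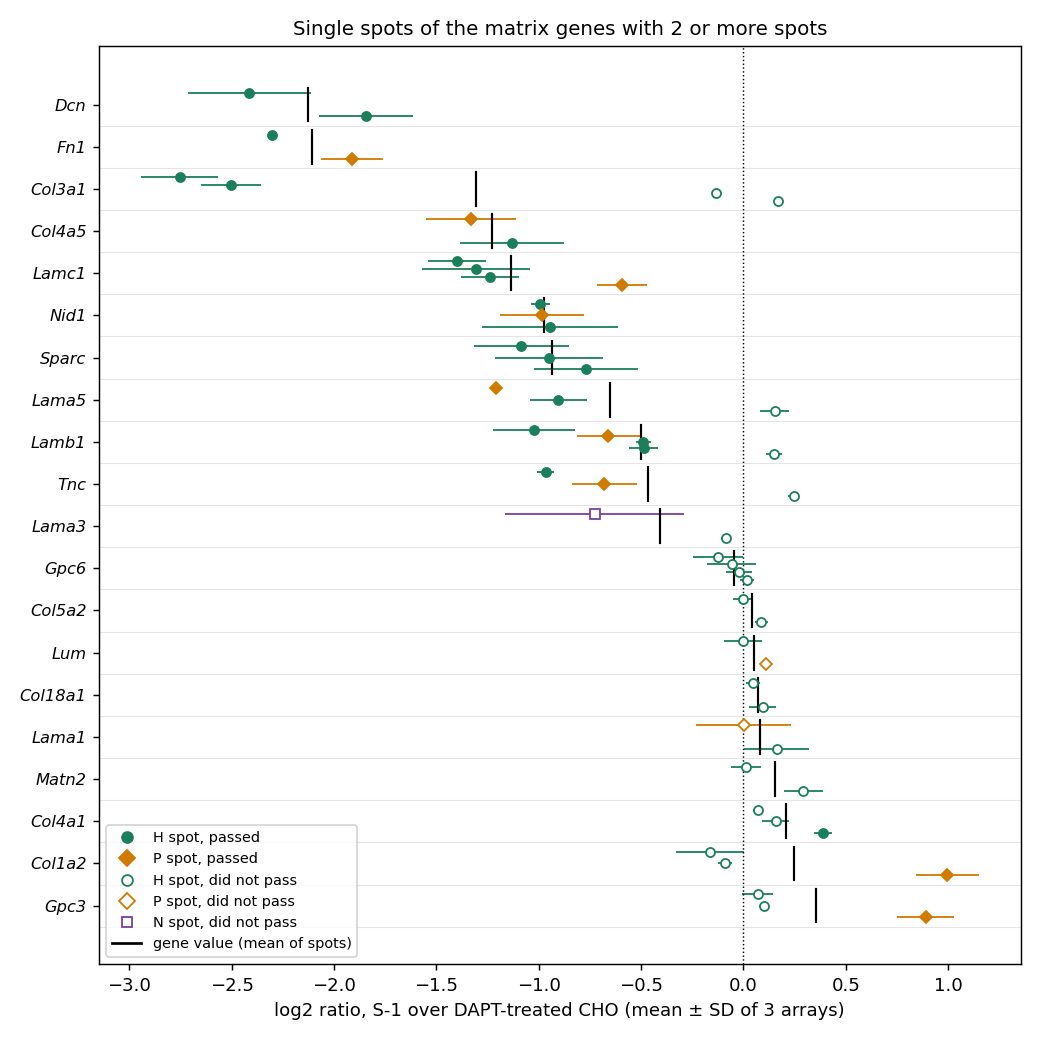
Single spots of the 20 matrix genes with 2 or more spots, as the mean log2 S-1/DAPT-treated CHO ratio (horizontal axis) with the SD of 3 arrays as bars. Marker shape gives the clone collection, filled markers passed and black ticks are gene values. All spots of Dcn, Fn1, Col4a5, Lamc1, Nid1 and Sparc lie left of 0, while the 4 Col3a1 spots form a pair below −2.5 and a pair near 0.

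The collections from which the clones came differed over the array, so the matrix spots were also read within each of them. Of the 64 matrix spots of the H collection, 24 fell and 1 rose, beside 8.52% and 6.76% of all H spots. When H spots were fitted alone the counts were the same, beside 8.58% and 6.84%. Of the 14 matrix spots of the P collection, 9 fell and 2 rose, beside 12.8% and 19.3% of all P spots. On H spots alone, 15 of 40 matrix genes fell (10.7% of all genes on H spots) and limma called 0 higher (8% of all), where 3 were higher at an unadjusted p under 0.05. The falls were thus found in both large collections, while both genes that rose did so through spots outside the H collection.

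All 19 genes that passed had the same direction in both dye orientations. The same held for all 1845 genes that passed over the array, so that it is not particular to the matrix genes. The difference between array 3 and the mean of arrays 1 and 2 ran from −0.43 for Sparc and −0.42 for Dcn to 0.37 for Col4a5, around a median of 0.07, and 7 of the 19 differences were below 0. The ratios of the 80 matrix spots correlated between arrays with r = 0.985 (arrays 1 and 2), 0.946 (arrays 1 and 3) and 0.958 (arrays 2 and 3), given as a description since spots of an array share its hybridisation. With 2 arrays left in the fit the number of calls depended on the array taken out. Without array 1, 10 matrix genes fell and 1 rose (background 3.07% and 5.19% of all genes). Without array 2, 8 fell and 0 rose (2.07% and 3.89%), with 19 lower and 4 higher at an unadjusted p under 0.05. Without array 3, 19 fell and 3 rose (19.3% and 21.2%). By spots, 19 fell and 3 rose without array 1 (3.4% and 4.58% of all spots), 6 and 0 without array 2 (0.591% and 1.55%) and 35 and 7 without array 3 (18.2% and 18.8%). The matrix genes that fell were thus above their background in each of these fits, although leaving out array 2 lost the most calls. With the control spots of the array kept in the fit, 16 matrix spots fell and 2 rose (2.87% and 3.84% of all spots), and at an adjusted p of 0.05, 20 matrix genes fell and 6 rose (21.8% and 24.4% of all genes). Dcn, Fn1, Col3a1, Col4a5, Lamc1, Col7a1, Vcan and Nid1 passed whichever array was left out. The other 11 (Sparc, Lamb1, Lamb2, Tnc, Col6a1, Col4a2, Nid2, Gpc3, Lama5, Gpc1 and Thbs1) did not pass without array 2, and the first 8 of these did not pass without array 1 either. None of the 19 genes changed sign in these 3 fits. This could not have come out otherwise, since each had the same sign on all 3 arrays.

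**Figure D4:**
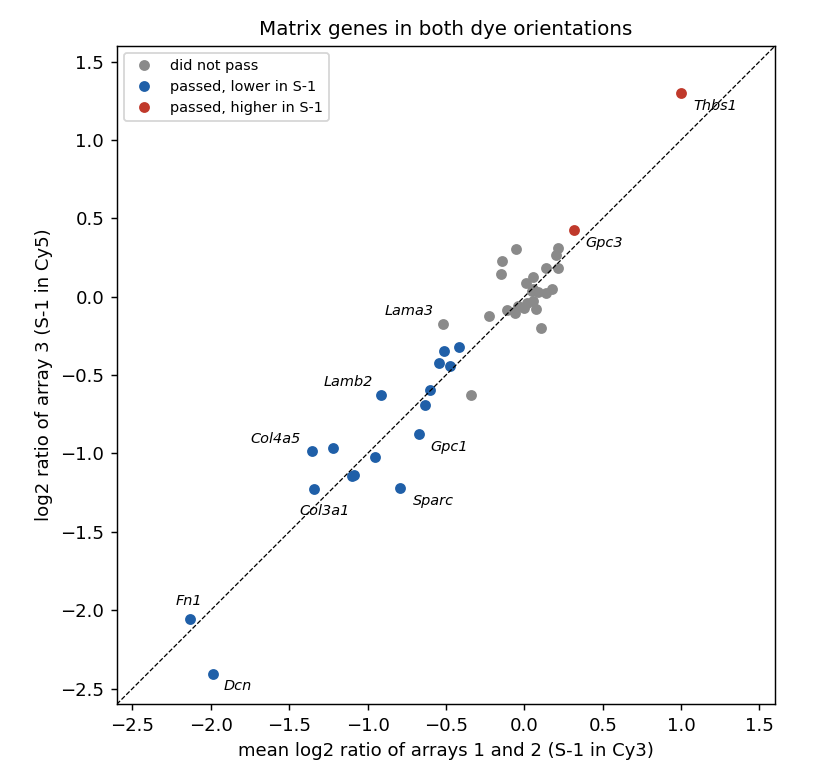
Gene value of the 44 matrix genes on array 3, where S-1 RNA carried Cy5 (vertical axis), against the mean of arrays 1 and 2, where it carried Cy3 (horizontal axis), both as log2 S-1/DAPT-treated CHO ratios. The dashed line marks equal values. Sparc and Dcn lie farthest below the line among the genes that passed (differences of −0.43 and −0.42) and Col4a5 farthest above it (0.37).

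The genomic order of some matrix genes was read from the RefSeq annotation of the Chinese hamster genome, in which 36 of the 44 symbols had an exact match. There, 3 pairs of matrix genes were direct neighbours among protein-coding genes, and in each pair 1 gene fell and the other did not pass. These were Dcn (−2.13) beside Lum (0.05), Col6a1 (−0.60) beside Col6a2 (0.00) and Col4a2 (−0.46) beside Col4a1 (0.21). In each pair the 3 arrays of the gene that fell lay below the 3 arrays of its neighbour. Col4a2, Col6a1 and Col6a2 were each read by 1 clone, and clones of a gene did not always measure the same ratio. The differences within pairs were not tested.

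Genes that make, modify, bind or remodel the matrix were read from lists of symbols. Collagen chains are hydroxylated and folded in the endoplasmic reticulum, exported in large carriers and trimmed outside the cell. The list for this route, which also held the collagen uptake receptor Mrc2 (0.02 ± 0.01, did not pass), had a value for 16 genes. Of these, 10 fell (62.5%), 1 rose (6.25%) and 5 did not pass, with a median of −0.44, beside 10.3% of all genes that fell and 12.4% that rose. Bmp1, the protease that removes the C-terminal propeptide of fibrillar procollagens, was lowest at −1.24, −1.35 and −1.50 (mean −1.36 ± 0.13, adjusted p = 1.72e-04). Plod3, a lysyl hydroxylase and glycosyltransferase of collagen, was at −1.22 ± 0.16, the prolyl 4-hydroxylase subunit gene P4ha2 at −1.12 ± 0.19, and Crtap, a subunit of the prolyl 3-hydroxylase complex, at −0.97 ± 0.18. Serpinh1, the collagen chaperone HSP47, fell by less (−0.33 ± 0.06, adjusted p = 0.00422). The only gene of the list that rose was Sec13, a coat protein of export vesicles in general (0.60 ± 0.10, adjusted p = 0.00111). Genes of collagen processing were thus more often lower than the collagen genes themselves, of which 5 of 19 fell. The difference between these shares was not tested.

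Of 15 genes that build or modify the sugar chains of proteoglycans, 6 fell (40%) and 9 did not pass (median −0.37), beside 10.3% of all genes that fell. The lowest were Ndst2, which sulfates heparan sulfate, at −1.04 ± 0.24 (adjusted p = 0.00119), Xylt2, which starts the chains, at −0.88 ± 0.32 (adjusted p = 0.00412), and Chst11, a chondroitin sulfotransferase, at −0.78 ± 0.05 (adjusted p = 3.10e-04). Extl3, which starts heparan sulfate, was at −0.63 ± 0.06. A list of 30 further genes outside the rule held matrix proteins and Mfap1a, a splicing protein despite its name (0.06 ± 0.06, did not pass). Of these 30 genes, 7 fell (23.3%), 4 rose (13.3%) and 19 did not pass (median −0.02). Of all genes 10.3% fell and 12.4% rose, so that the share that rose here was near the background. Agrin (Agrn), the basement membrane heparan sulfate proteoglycan that clusters acetylcholine receptors, was lowest at −1.51, −1.50 and −1.31 (mean −1.44 ± 0.11, adjusted p = 1.51e-04). It was followed by the syndecan Sdc1 at −0.95 ± 0.11 and the matrix peroxidase Pxdn at −0.85 ± 0.20. The highest of the 4 that rose, Ccn1 at 0.88 ± 0.05, was read by a spot at a position without a listed clone, and Vtn (0.56 ± 0.17) and Eln (0.42 ± 0.08) by a P clone each. The fourth, the syndecan Sdc2, was read by 2 H clones and a P clone (0.31 ± 0.03, adjusted p = 0.00373).

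Of 21 receptor genes of the matrix, 7 fell (33.3%), 5 rose (23.8%) and 9 did not pass, with a median of −0.09, beside 10.3% of all genes that fell and 12.4% that rose, and 12.8% and 19.3% of all P spots. The integrin subunit Itgb5, of a vitronectin receptor, was at −2.92, −3.17 and −3.22 (mean −3.10 ± 0.16, adjusted p = 1.36e-04), below every collagen and laminin. Cd47, which binds thrombospondin, was at −1.18 ± 0.10, Itgb1, the β subunit of the fibronectin, collagen and laminin receptors, at −1.08 ± 0.08 and dystroglycan (Dag1), a laminin receptor, at −0.88 ± 0.08 over 4 H clones. The highest was Cd36, a scavenger receptor that binds thrombospondin, at 2.51 ± 0.32, on a spot at a position without a listed clone. The other 4 that rose were integrin α subunits: Itga9 at 0.59 ± 0.03 over 3 H clones and a P clone (adjusted p = 5.64e-04), and Itga7 (0.77 ± 0.08), Itga8 (0.61 ± 0.19) and Itga2 (0.42 ± 0.10) on a P clone each. Integrin genes thus passed in both directions. The list of 22 genes that remodel the matrix held proteases, their inhibitors and the urokinase receptor. Of these genes, 5 fell (22.7%), 3 rose (13.6%) and 14 did not pass, with a median of 0.01. Their shares stand beside 10.3% of all genes that fell and 12.4% that rose, and beside 12.8% and 19.3% of all P spots, which read most of this list, so that the 3 that rose are near the background. Mmp14, the membrane-bound collagenase, was at −1.58 ± 0.29, the urokinase gene Plau at −1.17 ± 0.02, Timp1, an inhibitor of metalloproteinases, at −1.16 ± 0.17 and Mmp17 at −0.89 ± 0.14, each on 1 P clone (adjusted p between 1.40e-04 and 6.48e-04). The 3 that rose were Mmp7 (0.75 ± 0.10, adjusted p = 6.33e-04), the inhibitor Timp4 (0.73 ± 0.14 over 3 spots, adjusted p = 0.00106) and the collagenase Mmp13 (0.40 ± 0.02, adjusted p = 0.00173). Both proteases and inhibitors thus stood on either side of 0.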

How the data were processed

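Each of 3 arrays was hybridised with RNA of 1 S-1 and 1 DAPT-treated CHO culture from an independent experiment. The authors read the images with GenePix Pro, did not subtract background, applied lowess within print-tip groups, and deposited log2 ratios for 17664 spots (missing values: 0). The ratios are oriented with S-1 on top on each array, the dye-swapped one included. Signals were not used here, so their depth is unknown.

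Gene names came from the array's annotation: 12563 tested spots had 1 symbol, 412 several and 3953 none. Control spots (736, at the 23 positions of each of the 32 blocks where no spot is named) were left out. Matrix genes were taken by symbol, and 1 spot with a matrix symbol beside another gene was not used. Clone collections were assigned by position, from the clone letters of the study's lists: 2513 of the 2514 listed clones paired by fold with 1 spot bore the letter of its position (relative tolerance 6e-06). Supplementary fold and p columns were used for nothing else.

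limma 3.58.1 in R 4.3.3 fitted 1 coefficient against 0 to all tested spots, and to gene values (mean of the spots of a gene), with empirical Bayes variance (prior degrees of freedom 3.05 for spots, 2.96 for genes), with p-values adjusted by Benjamini-Hochberg over all spots or genes, at a threshold of 0.005. Intervals are 95% intervals of that fit. The fit of spots was tested on simulated ratios with independent noise on each array. These held no dye, collection or clone effects, and gene values were not simulated. Tables and figures were made in Python 3.11.15 (Matplotlib 3.10.9, SciPy 1.17.1, pandas 2.3.3, NumPy 2.4.6). The matrix genes, lists and tests were chosen with earlier results of these data known. Every matrix gene that passed is named, and of each other list up to 4 passing genes by size. Matrix genes that did not pass, Serpinh1, Dag1, Mrc2, Mfap1a and the genes of the lists that rose were named after their values were seen. Settings tried besides these were each array left out, an adjusted p of 0.05, at least 1.5-fold, array centring, scaling or quantile normalisation, a dye coefficient, a robust prior, array weights, control spots kept, H clones alone, unlisted spots left out, collections centred and the median of spots.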

Additional observations from a re-analysis of the deposited data

How the results depend on the processing

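The main counts were 17 genes and 33 spots lower and 2 genes and 4 spots higher in S-1 cells. Leaving out 1 array gave 8 to 19 genes and 6 to 35 spots lower, and 0 to 3 genes and 0 to 7 spots higher. The fewest came without array 2, where limma called 0 genes and 0 spots higher, with 4 genes and 7 spots higher at an unadjusted p under 0.05. Without array 2, 11 of the 19 genes that had passed no longer did, and without array 1 it was 8. With the control spots kept, 16 spots fell and 2 rose. The counts of higher genes and spots were 5 and 7 with dye as a coefficient, 6 and 8 at a threshold of 0.05, and 0 and 1 on H clones alone. Higher genes numbered 5 with array weights, and 1 each without unlisted spots, with collections centred, with the median of spots and at 1.5-fold or more. Under each of the other alternatives run, the counts of lower genes and spots stayed within 1.5 times the main ones. Direction turned for Thbs1 with collections centred (−0.46) and for Col1a2 on H clones alone (−0.13) and with the median of spots (−0.065). The cause of these changes was not tested. Each array holds 1 culture of each side, so that the ratio is itself the pair and the fit against 0 is a paired analysis. Without intensities, spots with little hybridisation could not be left out.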
